A study of Mus musculus with 8 samples.

Results

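Chemokines are small secreted proteins that direct the movement of leukocytes, and their receptors are membrane proteins that signal through G proteins. The 10 genes described here encode 6 ligands and 4 receptors with known roles in myeloid cells. They were chosen by name, through the platform annotation: Ccl2, Ccl3, Ccl4, Ccl6, Ccl9 and Cxcl2 for the ligands, and Ccr1, Ccr2, Cxcr2 and Cxcr4 for the receptors. All 10 were found among the 19938 genes that had a probe set of their own, and each of the 10 had 1 probe set. Ligands named CC carry their first cysteines side by side, while CXC ligands have a residue between them, and receptors are named after the class they bind. In marrow, Cxcr4 holds progenitors and immature granulocytes near cells that make Cxcl12, Cxcr2 draws neutrophils out, and Ccr2 lets monocytes leave for the blood.

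The cultures were mouse c-Kit-positive bone marrow cells with floxed Runx1 and Cbfb alleles that had been transduced with MLL-AF9, a leukaemia fusion gene, and with CreERT2, whose Cre activity is switched on by 4-hydroxytamoxifen (4OHT), and then selected with puromycin over several replatings. Runx1Cbfb-KO cultures received 4OHT at 1 µM and Control cultures received ethanol, each for 24 h in cytokine-containing methylcellulose. Every group held 4 arrays, 2 biological replicates of each of 2 clones, and a set joins the Runx1Cbfb-KO and the Control culture that share a clone and a replicate number. All cultures carried the same floxed alleles, MLL-AF9 and CreERT2, and none received 4OHT without the floxed alleles, so 4OHT and active Cre cannot be told apart from the deletion. The results come from 2 clones of transduced cells, not from primary leukaemia.

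Levels are the deposited log2 values, and the medians of the 8 arrays lay between 6.26 and 6.39. Arrays of different clones correlated at 0.977 to 0.991 over all probe sets and those of the same clone at 0.991 to 0.997. The Runx1 probe set was higher in the arrays labelled Runx1Cbfb-KO, at 10.58, 10.64, 10.87 and 11.19, than in Control arrays, at 10.05, 10.12, 10.31 and 10.71, and it rose by 0.52 ± 0.04 on the log2 scale (SE over 4 sets; adjusted p = 1.64e-05 by limma). This runs against a label that names a loss of Runx1. Cbfb differed by -0.18 ± 0.05 and did not pass (adjusted p = 0.128 by limma). It was lower in the labelled culture of all 4 sets, at -0.21, -0.08, -0.17 and -0.27, which is the direction of the label. Where the probes lie relative to the deleted exons is not known here, so these values do not test the deletion, and every direction below follows the label of an array. All 16 progenitor genes on the marker list were measured, and the list's mean log2 level was 10.31 to 10.70 in arrays labelled Runx1Cbfb-KO and 10.37 to 10.71 in Control arrays. Kit, the surface receptor by which the marrow cells were chosen, was at 9.50 to 9.74 in arrays labelled Runx1Cbfb-KO and 9.70 to 10.15 in Control arrays. Cd34, another surface protein of progenitors, was at 11.11 to 11.57 in clone 2 and 5.58 to 5.92 in clone 1, so the clones lay far apart for this marker.

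The stretch around the start of transcription is shown for Ccl3 and Cxcr4, the genes that fell after 4OHT. RefSeq promoter windows, 250 bases before to 50 after the annotated start in GRCm38.p6, were available for 8 of the 10 genes. Capitals mark the core of the RUNX motif, TGTGGT or TGCGGT on either strand. Ccl3 is at chr11:83649329-83649628 on the minus strand and Cxcr4 at chr1:128592250-128592549 on the minus strand.
Ccl3: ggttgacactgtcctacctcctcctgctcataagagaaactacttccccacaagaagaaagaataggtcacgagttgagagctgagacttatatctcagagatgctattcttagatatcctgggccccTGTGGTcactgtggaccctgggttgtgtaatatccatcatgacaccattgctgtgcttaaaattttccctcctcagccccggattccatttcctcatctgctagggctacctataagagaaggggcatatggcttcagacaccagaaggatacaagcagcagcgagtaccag
Cxcr4: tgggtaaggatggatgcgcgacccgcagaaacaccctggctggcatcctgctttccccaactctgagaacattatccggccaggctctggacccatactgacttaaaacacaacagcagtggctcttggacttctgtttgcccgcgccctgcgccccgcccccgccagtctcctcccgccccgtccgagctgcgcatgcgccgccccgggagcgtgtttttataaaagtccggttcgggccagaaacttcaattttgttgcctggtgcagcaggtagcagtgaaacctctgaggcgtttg
The Ccl3 window held 1 core, TGTGGT, which began at position -122 from the start, and the Cxcr4 window held none. Among the other 6 windows, that of Ccr1 held 1 core and those of Ccl6, Ccl9, Cxcl2, Ccr2 and Cxcr2 held none. Over all 32851 windows of this length, 22.4% held a core. The TATA box, TATAAA on the gene's strand, began at position -30 from the start of Cxcr4 and at -92 from that of Ccl9. It was found in 8.32% of all windows. A match of letters is no evidence of binding, and a window without these letters says nothing of sites elsewhere.

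Ccl6 and Ccl9 are neighbours on chromosome 11, and a local alignment of their windows gave the highest score of the 28 pairs of windows. The aligned stretches are shown because these neighbours are described side by side in the comparison of the clones. They lie at chr11:83593073-83593146 and chr11:83578588-83578654, both on the minus strand, and capitals mark identical bases.
Ccl6: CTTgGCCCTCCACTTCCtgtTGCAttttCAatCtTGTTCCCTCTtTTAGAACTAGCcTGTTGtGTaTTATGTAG
Ccl9: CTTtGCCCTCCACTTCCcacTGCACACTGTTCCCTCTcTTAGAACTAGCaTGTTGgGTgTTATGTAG
Of 74 aligned positions, 59 were identical (79.7%) and 7 were gaps. Whether probes of Ccl6 also match Ccl9, or those of Ccl3 also match Ccl4, was not tested.

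The first comparison set the arrays labelled Runx1Cbfb-KO against the Control arrays of the same sets. Of the 10 genes, Ccl3 and Cxcr4 fell, none rose, and 8 did not pass the threshold of an adjusted p under 0.05. Both changes were small, 1.14-fold for Ccl3 and 1.21-fold for Cxcr4. Over all 19938 genes 0.953% were called, 0.481% higher and 0.471% lower. The median log2 difference was -0.04 over the 10 genes and 0.00 over all genes, and the median size was 0.12 and 0.04. The fits used limma with the set as a block, and p-values measure only the spread between these cultures, from 2 clones, together with spread borrowed from other genes. A bulk array cannot tell less RNA per cell from fewer cells that make it.

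**Figure D1:**
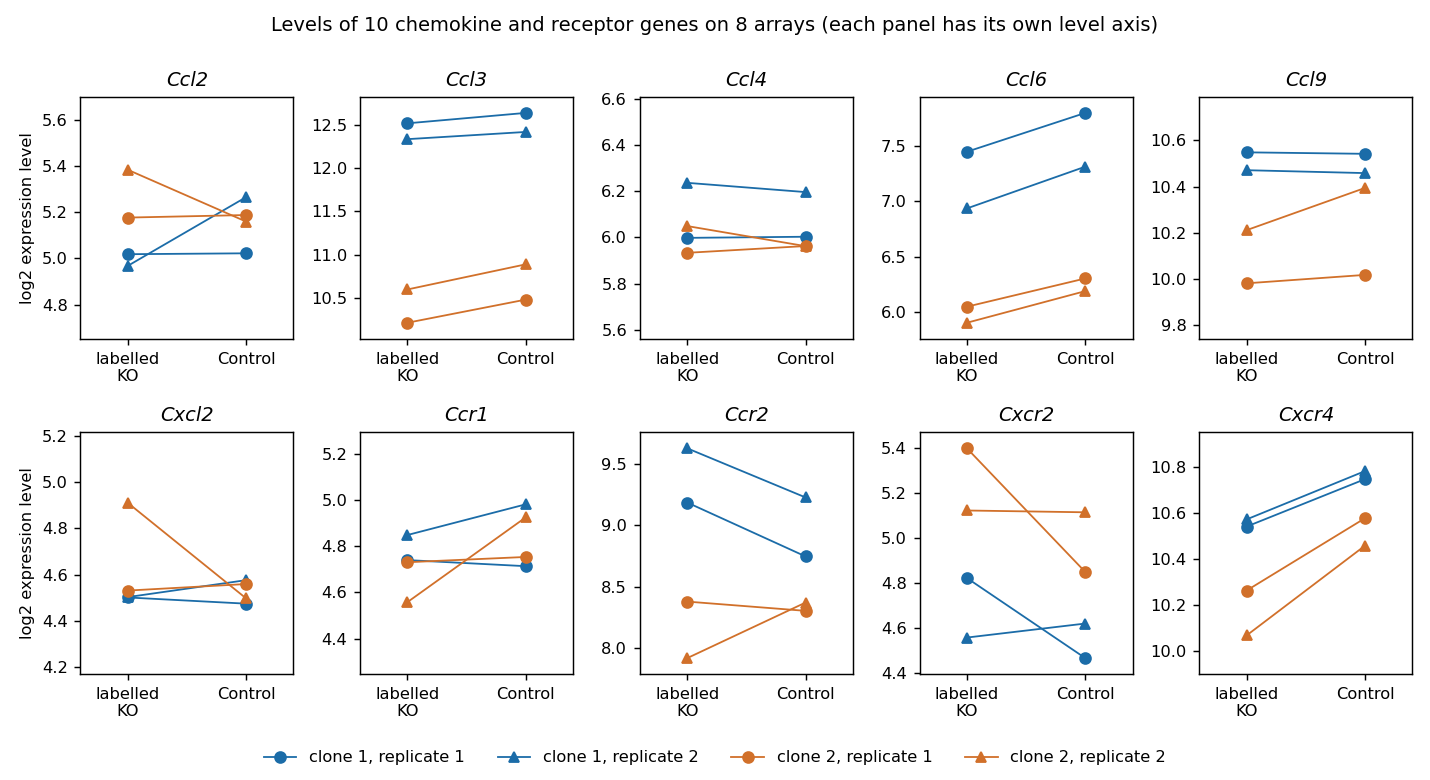
Log2 expression levels of the 10 genes in the 4 arrays labelled Runx1Cbfb-KO (left) and the 4 Control arrays (right), with a line joining the cultures of a set. Blue marks clone 1 and orange clone 2, circles replicate 1 and triangles replicate 2. For Ccl3, Ccl6 and Cxcr4 every line is lower on the left, and the clones lie apart for Ccl3 and Ccl6.

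Among the ligands, Ccl3 encodes an inflammatory chemokine that acts on Ccr1 and is also known as an inhibitor of stem and progenitor cell growth. Its log2 level was 12.52 and 12.33 in the arrays of clone 1 labelled Runx1Cbfb-KO, against 12.64 and 12.42 in the Control arrays of that clone. In clone 2 it was 10.22 and 10.60 in arrays labelled Runx1Cbfb-KO, against 10.48 and 10.89 in Control arrays. Every array labelled Runx1Cbfb-KO was below the Control array of its set, while the 2 groups overlapped widely because the clones lay far apart. The log2 difference was -0.19 ± 0.04 (SE, n = 4 sets; adjusted p = 0.0298 by limma), and it was -0.12 and -0.08 in the sets of clone 1 and -0.27 and -0.29 in those of clone 2. Leaving out the set of replicate 1 in clone 2 ended the Ccl3 call (-0.16, adjusted p = 0.0845). So did fits without the block (adjusted p = 1), with covariates for clone alone or for clone plus replicate number in its place (1 for both) and with no variance trend (0.515).

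Ccl6 encodes a CC chemokine known from rodents that acts through Ccr1. Log2 levels in clone 1 were 7.45 and 6.94 in arrays labelled Runx1Cbfb-KO and 7.80 and 7.31 in Control arrays. In clone 2 they were 6.05 and 5.91 in arrays labelled Runx1Cbfb-KO and 6.31 and 6.19 in Control arrays. All 4 sets were lower in the labelled culture, by amounts that were close to each other, -0.35, -0.38, -0.25 and -0.29. The log2 difference of -0.32 ± 0.08 did not pass (limma adjusted p = 0.0992). Ccl6 passed in 3 of 15 alternative fits. These were array weights (-0.33, limma adjusted p = 0.0222), a further quantile normalization (-0.34, 0.0400) and leaving out replicate 2 of clone 2 (-0.33, 0.0333). It did not pass without the block or without the variance trend (0.0933). Nor did it pass without replicate 1 (0.339) or 2 (0.694) of clone 1 or replicate 1 of clone 2 (0.286).

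Ccl9, a rodent ligand of Ccr1 and the neighbour of Ccl6, did not pass. Its log2 level was 10.55, 10.47, 9.98 and 10.21 in arrays labelled Runx1Cbfb-KO and 10.54, 10.46, 10.02 and 10.39 in Control arrays, each in the order clone 1 replicates 1 and 2, then clone 2 replicates 1 and 2. The sets differed by 0.01, 0.01, -0.04 and -0.18, so the last set stood lowest, and the estimate was -0.05 with a 95% interval of -0.14 to 0.04. For Ccl4, an inflammatory CC chemokine, arrays labelled Runx1Cbfb-KO lay between 5.93 and 6.24 and Control arrays between 5.96 and 6.20. Its log2 difference was 0.02, with an interval of -0.15 to 0.19. The annotated spans of Ccl3 and Ccl4 overlap in the RefSeq table, and whether a probe set of either gene picks up the other was not tested.

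Ccl2, the ligand of Ccr2 that draws monocytes, had log2 levels of 4.97 to 5.38 in arrays labelled Runx1Cbfb-KO and 5.02 to 5.27 in Control arrays. Its sets went both ways, from -0.30 to 0.22, and the estimate was -0.02 (95% interval -0.21 to 0.16). Cxcl2, a ligand of Cxcr2 that draws neutrophils, lay at 4.50, 4.50, 4.53 and 4.91 in arrays labelled Runx1Cbfb-KO and between 4.47 and 4.58 in Control arrays. Only the set of clone 2, replicate 2 differed by much, at 0.41, and the estimate of 0.08 ± 0.08 did not pass. Ccl2, Cxcl2, Ccr1 and Cxcr2 had mean log2 levels below 6, and 6 of the 10 genes were at or above it. No detection calls were used, so a level below 6 is not taken as absence of the RNA.

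Cxcr4, the receptor of Cxcl12, had the smallest p of the 10 genes in this comparison. Its log2 level was 10.54 and 10.57 in the arrays of clone 1 labelled Runx1Cbfb-KO and 10.75 and 10.78 in the Control arrays of that clone. In clone 2 the level was 10.26 and 10.07 in arrays labelled Runx1Cbfb-KO and 10.58 and 10.46 in Control arrays. Within each clone the labelled arrays lay below both Control arrays, and over both clones the groups overlapped. The share of all genes that were separated like this within each clone was not counted. The sets differed by -0.21, -0.21, -0.31 and -0.39, which gave -0.28 ± 0.04 (SE, n = 4 sets; limma adjusted p = 0.00503). The Cxcr4 call ended in fits that left out the block (adjusted p = 1), that replaced it by clone (0.190) or by clone plus replicate number (0.0523), and that had no variance trend (0.183).

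**Figure D2:**
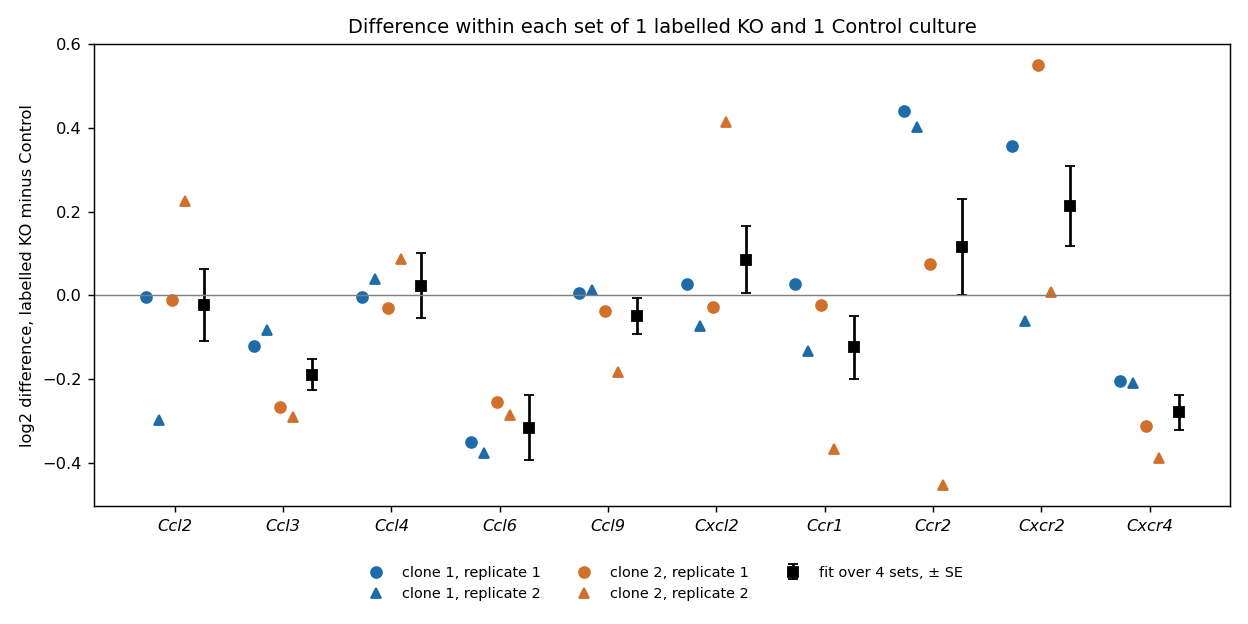
Log2 difference between the culture labelled Runx1Cbfb-KO and the Control culture in each of the 4 sets (coloured points) and the estimate of the fit ± SE (black squares) for the 10 genes. All 4 points of Ccl3, Ccl6 and Cxcr4 lie below 0, and for Ccr2 those of clone 2 lie at 0.08 and -0.45 and those of clone 1 at 0.44 and 0.40.

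Ccr2, the receptor for Ccl2 on monocytes, did not pass over the 4 sets, and its sets disagreed. In clone 1 its log2 level was 9.19 and 9.63 in arrays labelled Runx1Cbfb-KO and 8.75 and 9.23 in Control arrays. In clone 2 it was 8.38 and 7.91 in arrays labelled Runx1Cbfb-KO and 8.30 and 8.37 in Control arrays. Both sets of clone 1 were higher in the labelled culture, and in clone 2 the sets were at 0.08 and -0.45. The estimate over 4 sets was 0.12 ± 0.11 (SE; limma adjusted p = 1). With replicate 2 of clone 2 left out it was 0.31 and passed (adjusted p = 0.0131), so this set decided whether Ccr2 was called.

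Cxcr2, the receptor for Cxcl2 on neutrophils, had log2 levels of 4.82, 4.56, 5.40 and 5.12 in arrays labelled Runx1Cbfb-KO and 4.46, 4.62, 4.85 and 5.11 in Control arrays, in the order of clones and replicates given for Ccl9. The sets of replicate number 1 differed by 0.36 and 0.55 and those of replicate number 2 by -0.06 and 0.01, so the difference over 4 sets of 0.21 ± 0.10 (limma adjusted p = 0.728) rested on the first pair. Within the sets of replicate number 1 Cxcr2 was at 0.45 and passed (adjusted p = 0.00536, 2 sets), while the other pair of sets gave -0.03 (0.946). Ccr1, a receptor of Ccl3, Ccl6 and Ccl9 on myeloid cells, ranged from 4.56 to 4.85 in arrays labelled Runx1Cbfb-KO and from 4.71 to 4.98 in Control arrays. The log2 difference of Ccr1 was -0.12 (95% interval -0.29 to 0.04), with the set of clone 2, replicate 2 at -0.37 and the others between -0.13 and 0.03.

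The next question was whether the change differed between the clones. In a model with a separate effect for each clone, Ccl3 and Cxcr4 passed in clone 2, where 0.682% of all genes were called, 0.286% higher and 0.396% lower. None of the 10 passed in clone 1, where 0.181% of all genes were called, 0.0602% higher and 0.12% lower. At an unadjusted p under 0.05, 4 of the 10 and 725 of all genes differed in clone 1. Ccl3 fell by 0.28 in clone 2 (SE 0.04, limma adjusted p = 0.00442), and its difference in clone 1 was -0.10 ± 0.04 (adjusted p = 1). Cxcr4 fell by 0.35 in clone 2 (SE 0.06, adjusted p = 0.00608), and its difference in clone 1 was -0.21 ± 0.06 (adjusted p = 0.357). The tests of the difference between the clone effects passed for none of the 10 genes, with 0.01% of all genes called, 0.00502% higher and 0.00502% lower, so these 2 genes were not shown to change more in clone 2. At an unadjusted p under 0.05 the tests found 2 of the 10 genes, Ccr2 and Ccl3, and 393 of all genes. In clone 2 the calls of Ccl3 (adjusted p = 1) and Cxcr4 (0.569) ended without the block, and without the variance trend (0.830 and 0.514). Leaving out either set of clone 2 did not move the clone 1 differences of Cxcr4 (-0.21) and Ccr2 (0.42). Both passed then. The estimate of the spread, which the clones share, had changed, and so had the p-values of all genes that enter the adjustment. Which of these mattered was not tested. These fits share the arrays of the first comparison and add no separate support to it.

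Ccr2 had the smallest p of the 10 genes in the test of the difference between the clones' effects. Its effect was -0.19 ± 0.11 in clone 2 and 0.42 ± 0.11 in clone 1 (SE, n = 2 sets each). The difference of these effects, clone 2 minus clone 1, was -0.61 ± 0.16, with an unadjusted limma p of 0.00143 and an adjusted p of 1 over all genes. It passed when replicate 1 of clone 2 was left out (-0.88, adjusted p = 3.69e-06), where clone 2 is left with the set that stood at -0.45. The difference of Ccl3, -0.18 ± 0.06, had an unadjusted p of 0.0115 and an adjusted p of 1.

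The clones were then compared with each other within a treatment, clone 2 against clone 1, in a fit of the 4 groups of clone by treatment without the block. That fit counted the cultures of a set as independent. Their deviations correlated with clone means removed (r = 0.436 in clone 1, 0.249 in clone 2), so the spread rests on fewer independent values than counted. In Control arrays Ccl3 and Ccl6 were lower in clone 2 and the other 8 genes did not pass. Ccl3 stood at 10.48 and 10.89 in clone 2 and 12.64 and 12.42 in clone 1, a 3.58-fold difference (log2 difference -1.84 ± 0.15, SE, n = 2 arrays per clone; limma adjusted p = 3.73e-05). Ccl6 stood at 6.31 and 6.19 in clone 2 and 7.80 and 7.31 in clone 1, a 2.47-fold difference (-1.31 ± 0.19, adjusted p = 0.00294). Neither gene overlapped between the clones in either treatment, and the share of all genes without such overlap was not counted. Each call held without the variance trend (limma adjusted p = 0.000659 for Ccl3 and 0.00733 for Ccl6). It also held with a further quantile normalization, averaged probe sets, the level filter and the replicate number as a block. With a set left out the log2 differences ran from -2.05 to -1.64 for Ccl3 and from -1.55 to -1.06 for Ccl6. Over all genes 3.97% were called, 1.6% higher and 2.37% lower in clone 2. The median log2 difference was -0.19 over the 10 genes and 0.03 over all genes.

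Ccl9 and Ccl4, which lie beside Ccl6 and Ccl3, did not pass in this comparison. On chromosome 11 the RefSeq table lists Ccl5, Ccl9, Ccl6, Ccl3 and Ccl4 in this order, with no other protein-coding gene between them. Their log2 differences between the clones in Control arrays, in that order, were 0.02, -0.29, -1.31, -1.84 and -0.14. The 2 genes that were called are thus next to each other, and the flanking Ccl9 (adjusted p = 0.339), Ccl4 (0.761) and Ccl5 (0.974) were not called; differences between neighbours were not tested. Over both treatments Ccl9 was at 9.98 to 10.39 in clone 2 and at 10.46 to 10.55 in clone 1. The share of all genes whose clones lay apart like this was not counted.

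Among the receptors, Ccr2 was at 8.30 and 8.37 in clone 2 and 8.75 and 9.23 in clone 1 (-0.65 ± 0.20, adjusted p = 0.133), and Cxcr2 was at 4.85 and 5.11 in clone 2 and 4.46 and 4.62 in clone 1 (0.44 ± 0.14, adjusted p = 0.138). Cxcr4 differed by -0.25 ± 0.08 (adjusted p = 0.199). For Ccl2, Cxcl2 and Ccr1 the log2 difference was 0.03, 0.00 and -0.01, with 95% intervals that reached from -0.27 to 0.28. The same comparison in arrays labelled Runx1Cbfb-KO was added after the values were seen, and 5.25% of all genes were called, 1.82% higher and 3.43% lower in clone 2. There Ccl3 (-2.02 ± 0.15, adjusted p = 1.71e-05), Ccl6 (-1.21 ± 0.19, 0.00417), Ccr2 (-1.26 ± 0.20, 0.00402) and Cxcr4 (-0.39 ± 0.08, 0.0232) were lower in clone 2 and Cxcr2 was higher (0.57 ± 0.14, 0.0366). The calls of Ccr2 (adjusted p = 0.0664), Ccl6 (0.0608) and Cxcr4 (0.226) ended when replicate 2 of clone 2 was left out, and Ccl9 passed then (-0.53, 0.0343). Ccl9 also passed on all arrays with the replicate number as a block (-0.41, adjusted p = 0.0300), which made 6 of the 10 genes called in place of 5. Cxcl2 passed when replicate 1 of clone 2 was left out (0.41, 0.0452). Cxcr2 lost its call without the variance trend (0.0655) and when replicate 1 (0.0980) or 2 (0.204) of clone 1 or replicate 1 of clone 2 (0.0865) was left out. Cxcr4 also lost its call without the variance trend (0.0613) and without either set of clone 1 (0.151 and 0.109).

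**Figure D3:**
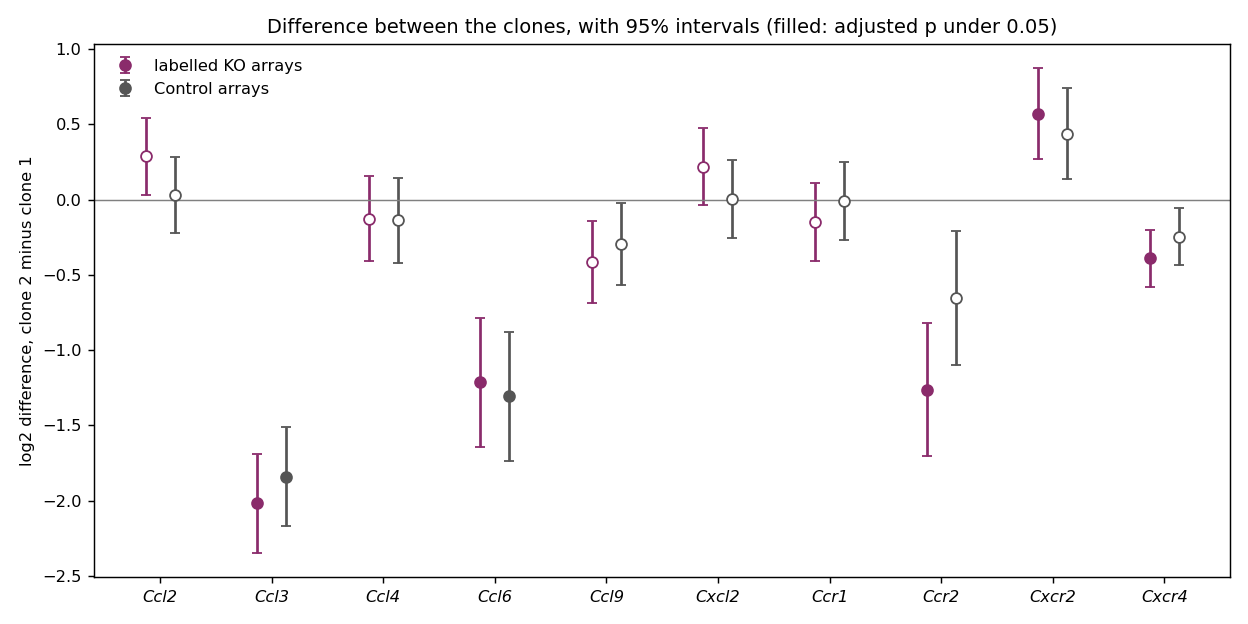
Log2 difference, clone 2 minus clone 1, with its 95% interval, in the arrays labelled Runx1Cbfb-KO (left of each pair) and in Control arrays (right) for the 10 genes; filled points passed an adjusted p of 0.05. Ccl3 and Ccl6 lie furthest below 0 among Control arrays, at -1.84 and -1.31.

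The genes whose levels over the 8 arrays were most like those of the called members were named by Pearson's r as a measure of likeness. The 8 arrays share their clones and treatments, so r is given as a description. For Ccl3 they were Nudt4 (r = 0.996), Adgrd1 (0.995) and Galnt6 (0.993). For Ccl6 they were Tgfbr3, a coreceptor for transforming growth factor beta (0.989), Mitf, a transcription factor of mast cells and melanocytes (0.989), and Gcnt1, a glycosyltransferase that makes branched O-glycans (0.985). For Cxcr4 they were Hvcn1, a proton channel of phagocytes (0.992), Atp1b1, the beta chain of a sodium and potassium pump (0.982), and Arhgap19 (0.971). Arrays labelled Runx1Cbfb-KO differed from Control arrays by -1.13 for Hvcn1, -1.17 for Atp1b1 and -0.30 for Arhgap19 on the log2 scale. The differences of these genes between clone 2 and clone 1 in Control arrays were -1.31, -1.24 and -0.21. Cxcr4 itself differed by -0.28 between the labels and by -0.25 between the clones in Control arrays. These genes were chosen for their likeness to Cxcr4 on these same arrays, so a shared pattern follows from the choice.

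The rest of the chemokine family was described from lists of 62 genes, of which 59 were measured, 49 beside the 10. None of the 49 passed in the comparison of arrays labelled Runx1Cbfb-KO with Control arrays, and their log2 differences ran from -0.10 to 0.10. Of the 19 CC ligands measured, 1 fell and 18 did not pass (median -0.01). All 17 CXC, C and CX3C ligands (median 0.02) and all 5 atypical receptors (median 0.01) were short of the threshold, the smallest p being that of Pf4 (0.08 ± 0.06) and of Ackr3, which binds Cxcl12 without G protein signalling (0.10 ± 0.08). Of 18 receptors 1 fell and 17 did not pass (median 0.01). Between the clones in Control arrays none of the 49 passed either, with a range of -0.23 to 0.49; the largest was Cx3cr1, the receptor of monocytes for Cx3cl1 (0.49 ± 0.13, adjusted p = 0.0786). Cxcl12, the ligand of Cxcr4, was at 0.33 ± 0.11 (0.172), and the atypical receptor gene Ackr2 was at 0.24 ± 0.11 (0.457).

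**Figure D4:**
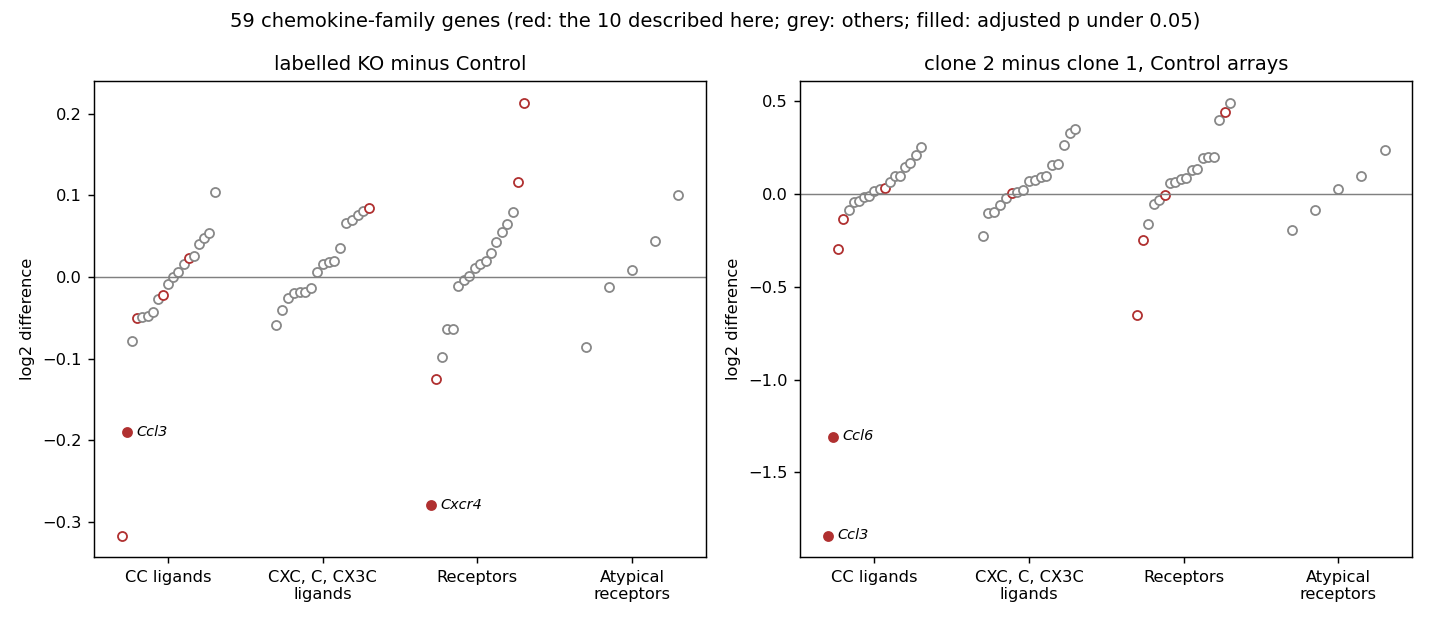
Log2 differences of 59 chemokine-family genes between arrays labelled Runx1Cbfb-KO and Control arrays (left panel) and between clone 2 and clone 1 in Control arrays (right panel), by class. Red marks the 10 genes described here, grey the other 49, and filled points with names passed an adjusted p of 0.05: Ccl3 and Cxcr4 on the left, Ccl3 and Ccl6 on the right.

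Genes around the receptors were summarised in the same way. Of 12 other chemoattractant receptors none passed in the comparison of arrays labelled Runx1Cbfb-KO with Control arrays (median 0.08), and the leukotriene receptor gene Ltb4r1 had the smallest p (-0.25 ± 0.08, adjusted p = 0.348). Between the clones Ptger4, a prostaglandin receptor gene, was lower in clone 2 (-0.96 ± 0.15, adjusted p = 0.00324) and Ltb4r1 was higher (0.68 ± 0.14, 0.0219). None of 30 genes that signal from chemokine receptors passed after 4OHT (median -0.01), with Gnai3, an inhibitory G protein subunit, at -0.14 ± 0.03 (adjusted p = 0.0778). Between the clones 1 of these 30 was called, Rgs2, a brake on G protein signalling, which was lower in clone 2 (-1.60 ± 0.20, adjusted p = 0.000862). Of 24 NF-kB factors, inhibitors and targets, none passed in these comparisons, Il1rn being at -0.33 ± 0.08 after 4OHT (adjusted p = 0.0861) and Tnf at 0.50 ± 0.14 between the clones (0.0859). In the test of the difference between the clone effects no gene of these 3 lists passed, the smallest p being those of Rgs18, another brake on G protein signalling (-0.46 ± 0.07, adjusted p = 0.0750), the complement receptor gene C5ar1 (0.95 ± 0.19, 0.602) and Il1a (0.24 ± 0.12, 1).

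In each comparison a few markers of other blood cells were called and most were not, and their part in the results above was not tested. Over all genes 0.953% were called after 4OHT. After 4OHT, 1 of 10 monocyte and macrophage markers rose, F13a1 (1.12 ± 0.16), with a mean list level of 7.47 to 7.55 in arrays labelled Runx1Cbfb-KO and 7.28 to 7.52 in Control arrays. Among 12 neutrophil markers Csf3r rose (0.27 ± 0.05) and Cebpe (-0.34 ± 0.05) and Ngp (-0.45 ± 0.09) fell, at mean list levels of 7.47 to 8.66 in arrays labelled Runx1Cbfb-KO and 7.58 to 8.60 in Control arrays. Mast cells and basophils are known sources of Ccl3. Of their 12 markers Hdc rose (0.63 ± 0.06), and the mean list level was 5.74 to 5.92 in arrays labelled Runx1Cbfb-KO and 5.75 to 5.89 in Control arrays. No marker passed among 7 B cell, 8 T and NK cell, 7 erythroid and megakaryocyte and 8 dendritic cell genes. Of the 16 progenitor genes 5 fell, among them Cebpa (-0.66 ± 0.08), Kit (-0.36 ± 0.05) and Prtn3 (-0.15 ± 0.03), and Csf3r rose. F13a1 was also 1 of the 2 genes called in the test of the difference between the clone effects (1.07 ± 0.11, clone 2 minus clone 1, adjusted p = 0.00201).

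Between the clones in Control arrays, 3 of 10 monocyte and macrophage markers were lower in clone 2, Adgre1 (-1.23 ± 0.16), F13a1 (-1.58 ± 0.31) and Lyz2 (-0.98 ± 0.22), and Csf1r was higher (0.70 ± 0.13). Over all arrays the mean list level was 7.28 to 7.53 in clone 2 and 7.51 to 7.55 in clone 1. Of the mast cell and basophil markers Ms4a2 was lower in clone 2 (-0.96 ± 0.17), with list levels of 5.74 to 5.92 in clone 2 and 5.87 to 5.91 in clone 1, and among neutrophil markers Cebpe was higher in clone 2 (0.44 ± 0.08), with list levels of 7.47 to 8.66 in clone 2 and 7.71 to 8.02 in clone 1. Of the B cell list Cd79b was higher (2.99 ± 0.16) and Igll1 lower (-2.39 ± 0.19) in clone 2, at list levels of 5.82 to 6.15 in clone 2 and 5.74 to 5.84 in clone 1. Gp9 of the erythroid and megakaryocyte list (0.70 ± 0.13) and Flt3 of the dendritic cell list (1.16 ± 0.17) were higher in clone 2, and none of the 8 T and NK cell markers passed. From the progenitor list Cd34 (5.48 ± 0.18) and Csf1r were higher and Fcgr3 (-1.04 ± 0.11) and Cebpa (-0.70 ± 0.12) lower in clone 2, at list levels of 10.59 to 10.71 in clone 2 and 10.31 to 10.44 in clone 1. Over all genes 3.97% were called in this comparison. These marker genes differed between the clones beside Ccl3 and Ccl6, and whether they come from the same cells was not tested.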

How the data were processed

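Total RNA of 8 cultures was made into biotin-labelled cDNA and hybridised to Affymetrix arrays, 1 array per culture, per the labels' protocols. The deposited values are log2 expression levels of 35556 probe sets made by the authors with RMA, per the submitters' processing notes. RMA corrects background, normalizes by quantiles and summarises probes, which can compress differences at low levels. Its version and the chip definition were not given in the sources used here. The values run between 2.60 and 13.77, from which a log2 scale was inferred. The number of arrays limits the precision.

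The platform annotation gave 21789 probe sets a single symbol, updated through Entrez identifiers in a RefSeq table. The probe set with the highest mean was kept per gene, which left 19938 genes. Fits used limma 3.58.1 in R 4.3.3 with a variance trend and were tested on simulated data. Tests are two-sided, and p-values were adjusted by Benjamini and Hochberg over all 19938 genes. The comparison of clones within a treatment had no block, and its repeat in Runx1Cbfb-KO arrays was added after the data were seen. The set was a block: the series' design text describes 4 sets, and titles pair cultures by clone and replicate number. Within every set the deviations of both cultures correlated (r between 0.724 and 0.817), and still did at 0.436 in clone 1 and 0.249 in clone 2 after clone means were removed.

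The 10 genes, the lists and the tests were chosen with earlier results of these data known. The 10 genes, Runx1 and Cbfb are always named. From each other list, up to 4 called genes with the smallest p per comparison are named, or, with none called, the gene with the smallest p, and for each called member the 3 genes most like it (r over arrays, SD of at least 0.2). Ccl5 is named for its position beside the members. Alternatives covered the block, covariates, variance trend, moderation, array weights, normalization, probe set choice, a level filter and each set left out.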

Additional observations from a re-analysis of the deposited data

Results flagged for a closer look

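A value far from the others was looked for in 36 groups of 4 values, and 1 stood out. The groups were the levels in each treatment and the set differences of the 10 genes, Runx1 and Cbfb. The cut-off flags about 1 in 20 groups whose values come from 1 distribution. Each group here held 2 clones, so that rate need not apply. Cxcl2 was at a log2 level of 4.91 in the array labelled Runx1Cbfb-KO of clone 2, replicate 2, while the other arrays with that label lay between 4.50 and 4.53. No cause was tested.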

How the results depend on the processing

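The calls between arrays labelled Runx1Cbfb-KO and Control arrays depended on the replicate block (the set), and also on the variance trend. The block gave 190 genes and 2 of the 10 members, and limma with treatment alone gave 0 genes and 0 members (317 genes and 1 member at an unadjusted p under 0.05). Clone as covariate gave 23 genes and 0 members, clone plus replicate number 78 and 0, and no variance trend 13 and 0. Within the sets of replicate number 1 there were 620 genes and within those of number 2 443 (1 residual degree of freedom each), and array weights gave 388. Without 1 set, 98 to 418 genes and 1 to 4 members passed, the most without replicate 2 of clone 2. For the clone 1 effect the counts were 36 genes, 1 without the block, 0 without the trend and 25 to 256 with a set left out (members 0 to 2). For the clone 2 effect they were 136 genes, 4 and 0 members without the block, 3 and 0 members without the trend, and 161 to 665 (members 2 to 3). The difference between the clone effects had 2 genes, 0 without the block (178 at an unadjusted p under 0.05) and 0 without the trend (304), and 5 to 224 with a set left out (members 0 to 1). Between the clones in Control arrays 792 genes passed, 1330 with the replicate number as a block and 385 to 588 with a set left out, with 2 members throughout. In Runx1Cbfb-KO arrays 1047 genes passed, 1927 and 6 members with that block, 382 to 1542 with a set left out (members 3 to 5), and 3 members without the trend. Where a left-out set leaves a clone with 1 set, that set is assumed to vary like the others. The causes were not tested.

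Signs turned only in members that had not passed in the comparison concerned. Within replicate number 1, Ccl4 was at -0.017, Cxcl2 at -0.00073 and Ccr1 at 0.0018, and within number 2 Ccr2 was at -0.026 and Cxcr2 at -0.027. With each set left out in turn, Ccl2 ran from -0.10 to 0.070 and Cxcl2 from -0.025 to 0.14 over all sets. Between the clones in Control arrays Ccl2 ran from -0.092 to 0.15, Cxcl2 from -0.048 to 0.054 and Ccr1 from -0.14 to 0.13. In clone 1 the ranges were -0.062 to 0.36 for Cxcr2, -0.0049 to 0.040 for Ccl4, -0.074 to 0.027 for Cxcl2 and -0.13 to 0.026 for Ccr1. In clone 2 they were -0.011 to 0.22 for Ccl2, -0.029 to 0.087 for Ccl4, -0.028 to 0.41 for Cxcl2 and -0.45 to 0.076 for Ccr2, which passed at the lower end (adjusted p = 0.00897). Cxcr2 in clone 2 passed when replicate 2 of that clone was left out (0.55, 0.0166). For the difference between the clone effects they were -0.047 to 0.069 for Ccl4, -0.14 to 0.40 for Cxcr2, -0.0050 to 0.44 for Cxcl2 and -0.31 to 0.030 for Ccr1. Turned values within those ranges were -0.028 for Cxcl2 and 0.078 for Ccr1 between the clones in Control arrays, and -0.011 for Ccl4 and -0.077 for Cxcr2 in the difference between the clone effects.

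Small differences in the 4 members with a mean log2 level below 6 are limited by signal over background, which was not measured here, and 8 arrays limit the precision of every value.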
